A study of Mus musculus with 12 samples.

Results

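The genes described here encode the enzymes, transporters and lipases that make and process ceramide and acylceramide, the barrier lipids of the epidermis. They were chosen by name: 32 mouse gene symbols were looked up in a deposited expression table of 17090 genes, and 31 were listed. Fa2h, the fatty acid 2-hydroxylase gene, was not listed and is not analysed here. All 31 listed genes passed the filter on low values, which asked for at least 1 CPM (a read count scaled by library size) in at least 3 of the 12 libraries. They were grouped by pathway step into fatty acid elongation (5 genes), sphingoid base synthesis (6), ceramide synthesis (5), omega-acylation (3), oxidation (3) and processing (9).

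Ceramides join a sphingoid base to a fatty acid. In the upper epidermis, elongases lengthen the fatty acid beyond the usual membrane chain, a cytochrome P450 hydroxylates its far end (the omega carbon), a ceramide synthase joins it to the base, and linoleic acid is esterified to the omega hydroxyl. The resulting acylceramide is glucosylated, packed into lamellar bodies, secreted, and its linoleate is oxidised by epidermal lipoxygenases so that the lipid can be bound to the cornified envelope. Inherited defects in several of these genes cause ichthyosis, a scaling skin disease with a leaky barrier.

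The cells were primary tail-skin keratinocytes of K14-SmoM2 mice, taken 5 weeks after tamoxifen, a model of basal cell carcinoma, the skin tumour driven by Hedgehog signalling. SmoM2 is an active form of the Hedgehog signal transducer Smoothened, and the keratin 14 promoter acts in basal epidermal cells. All 4 groups carried this genotype and were kept at 60 µM calcium with EGF (10 ng/ml) and the kinase inhibitor Y-27632 (10 µM). Each group had 3 libraries lettered A, B and C, made from polyadenylated RNA 48 h after treatment. Cells labelled siYAP1+TAZ received pooled small interfering RNAs against Yap1 and Wwtr1 (the TAZ gene), and cells labelled siControl received a non-targeting pool, each at 8 pmol per cm2. The Ad-TEADi group was infected with an adenovirus that carries an inhibitor of the TEAD transcription factors, and the Ad-GFP group with a CMV promoter virus for green fluorescent protein, each at a multiplicity of infection of 25. YAP1 and TAZ are coactivators that bind DNA mainly through TEAD factors. What share of the cultured cells carried active SmoM2 is not stated in the labels. Nor do they say whether libraries A, B and C were separate cultures or animals, and p-values here therefore rest on a spread that may be technical.

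Depth was 20.04 to 29.14 M reads per library, read from the steps between low values and counting only reads of listed genes. No listed gene had a value of 0 in any library. Yap1 had 67.1 ± 4.62 CPM in siYAP1+TAZ cells and 196 ± 9.57 CPM in siControl cells, and Wwtr1 had 28.1 ± 1.97 CPM in siYAP1+TAZ cells and 55.2 ± 1.96 CPM in siControl cells (SD, n = 3 each). The TEAD inhibitor is no knockdown, and Yap1 stood at 179.7 ± 4.30 CPM in Ad-TEADi cells and 211 ± 2.85 CPM in Ad-GFP cells, while Wwtr1 was higher, at 79.4 ± 2.23 CPM in Ad-TEADi cells and 58.2 ± 2.74 CPM in Ad-GFP cells. The 5 basal keratinocyte markers (Krt5, Krt14, Itga6, Trp63 and Col17a1) summed to between 36705 and 43009 CPM in every library, so the cells carried the markers of their label. With siYAP1+TAZ Trp63 rose by 0.45 on the log2 scale and Krt14 was not called. Itga6, Krt5 and Col17a1 fell by 0.32, 0.28 and 0.27. With Ad-TEADi Itga6, Krt14 and Trp63 rose by 0.29, 0.25 and 0.19, and Col17a1 and Krt5 fell by 0.31 and 0.22. The 6 spinous and granular markers (Krt1, Krt10, Lor, Flg, Ivl and Dsc1) summed to 4809 to 5564 CPM in siYAP1+TAZ cells and 726 to 816 CPM in siControl cells. Their sums were 2269 to 2363 CPM in Ad-TEADi cells and 622 to 794 CPM in Ad-GFP cells. All 6 markers of more differentiated keratinocytes rose with siYAP1+TAZ, by 1.89 (Flg) to 3.98 (Krt10) on the log2 scale. With Ad-TEADi Krt1, Krt10, Ivl and Dsc1 rose by 1.60 to 2.98, Flg rose by 0.39 with overlapping libraries, and Lor had a log2 change of -0.02 (limma, Benjamini-Hochberg, adjusted p = 0.914). The part of these markers in the changes below was not tested. In bulk RNA more cells of a type and more RNA per cell cannot be told apart.

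Of 11 sebaceous gland markers 6 were listed, and they summed to 233 to 249 CPM in siYAP1+TAZ and 89.7 to 90.1 CPM in siControl cells, and to 147 to 154 CPM in Ad-TEADi and 62.9 to 73.8 CPM in Ad-GFP cells. Most of that sum was Dgat2 and Soat1, lipid esterification genes that other cells also use, while Awat2, a sebaceous wax synthase gene, averaged at most 0.502 CPM in any group. Dgat2, Cidea and Scd3 rose by 2.09, 1.72 and 0.56 on the log2 scale with siYAP1+TAZ. With Ad-TEADi they rose by 1.73, 2.21 and 1.27. Mgst1 rose by 1.24 with siYAP1+TAZ and was not called with Ad-TEADi (log2 change -0.11). Soat1 fell by 0.23 with siYAP1+TAZ and rose by 0.50 with Ad-TEADi. The 5 listed immune markers summed to 49.7 to 51.5 CPM in siYAP1+TAZ and 17.3 to 18.2 CPM in siControl cells, and to 40.1 to 44.0 CPM in Ad-TEADi and 17.3 to 19.8 CPM in Ad-GFP cells. Of these Cd68, a lysosomal gene, was the most abundant, and the leukocyte gene Ptprc averaged at most 0.383 CPM. Cd68, Lyz2 and Itgam rose by 1.83, 0.81 and 0.46 on the log2 scale with siYAP1+TAZ. With Ad-TEADi they rose by 1.47, 0.67 and 0.79. Csf1r fell by 0.66 with siYAP1+TAZ and by 0.85 with Ad-TEADi. Fibroblast, melanocyte and endothelial markers summed to no more than 13.6 CPM per list in any library. The part of the sebaceous and immune markers in the members' changes was not tested.

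Promoters are shown for 4 members: Alox12b, which had the largest log2 rise of the members in both comparisons, Cers3 and Cers4, ceramide synthase genes that differed in their response to Ad-TEADi, and Abhd5, one of the members that held the TEAD motif. They come from RefSeq on build GRCm38.p6, 250 bases before to 50 bases after the start site, written 5′ to 3′ in the direction of transcription; these start sites need not equal the gene bounds of the deposited table.
Alox12b, chr11:69156822-69157121, plus strand: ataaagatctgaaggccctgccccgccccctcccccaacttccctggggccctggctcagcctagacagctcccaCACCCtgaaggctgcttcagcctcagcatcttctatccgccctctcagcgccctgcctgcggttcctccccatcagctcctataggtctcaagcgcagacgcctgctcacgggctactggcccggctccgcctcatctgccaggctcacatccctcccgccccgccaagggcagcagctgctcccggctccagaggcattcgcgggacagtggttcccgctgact
Cers3, chr7:66743254-66743553, plus strand: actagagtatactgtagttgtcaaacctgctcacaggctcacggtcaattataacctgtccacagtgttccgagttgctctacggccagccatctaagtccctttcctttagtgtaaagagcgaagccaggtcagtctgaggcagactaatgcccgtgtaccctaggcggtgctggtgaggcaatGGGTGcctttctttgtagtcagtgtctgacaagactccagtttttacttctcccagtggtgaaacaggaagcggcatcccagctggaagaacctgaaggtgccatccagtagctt
Cers4, chr8:4493155-4493454, plus strand: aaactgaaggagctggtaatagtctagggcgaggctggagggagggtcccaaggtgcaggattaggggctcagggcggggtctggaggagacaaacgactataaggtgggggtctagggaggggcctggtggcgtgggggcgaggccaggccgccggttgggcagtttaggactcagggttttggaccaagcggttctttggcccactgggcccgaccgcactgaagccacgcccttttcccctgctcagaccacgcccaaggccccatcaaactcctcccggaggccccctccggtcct
Abhd5, chr9:122351366-122351665, plus strand: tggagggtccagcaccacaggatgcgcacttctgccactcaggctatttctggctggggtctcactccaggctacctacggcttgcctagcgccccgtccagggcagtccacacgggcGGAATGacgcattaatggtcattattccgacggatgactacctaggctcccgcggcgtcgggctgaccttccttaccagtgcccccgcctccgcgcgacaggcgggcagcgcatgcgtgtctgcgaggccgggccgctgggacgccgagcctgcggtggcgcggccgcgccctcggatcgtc
Capitals mark matches to 3 short motifs on either strand: CATTCC (bound by TEAD factors), TGANTCA (bound by AP-1) and CACCC (bound by Krüppel-like factors). The Alox12b promoter held a CACCC match on its own strand, starting at base -175 from the start site. In Cers3 the match was CACCC on the other strand (base -65), in Abhd5 it was CATTCC on the other strand (base -132), and Cers4 had none of the 3. Promoters were found for 29 of the 31 members. CATTCC was present in 2 of the 29 (6.90%; Abhd5 and Sphk1), against 14.7% of the 32851 promoters in the table. TGANTCA was present in 0 of 29 members, against 7.81% of all promoters, and CACCC in 16 of 29 (55.2%), against 57.5%. These are matches of letters in a short window and show nothing of binding.

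In siYAP1+TAZ cells 22 of the 31 barrier lipid genes rose against siControl and 6 fell, at a Benjamini-Hochberg adjusted p below 0.05 in limma over all 12966 genes tested. Over all genes tested 32.7% rose and 36.1% fell. Of the members 17 rose by at least 2-fold (7.48% of all genes) and 1, Cers6, fell by at least 2-fold (2.3% of all genes). The median log2 change was 1.25 over the members and -0.03 over all genes. Elovl5, Elovl6 and Kdsr were not called. All siYAP1+TAZ libraries lay above all siControl libraries for 22 members (34.4% of all genes) and below them for 7 (37.8%). Changes were computed on log2(CPM + 1), a scale that understates those of low genes.

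In Ad-TEADi cells 20 members rose against Ad-GFP and 9 fell, while over all genes tested 33.5% rose and 26.3% fell. The rise reached 2-fold on the log2(CPM + 1) scale for 14 members (3.92% of all genes) and no member fell by that much (2.71% of all genes). Elovl7 lay just below that limit, at a log2 change of 0.996. The median log2 change was 0.85 over the members and 0.03 over all genes. Degs1 and Sgms1 were not called. All Ad-TEADi libraries lay above all Ad-GFP libraries for 21 members (35.5% of all genes) and below them for 9 (28.5%). These counts are from TMM-scaled values, the deposited scaling. With columns rescaled to equal totals the median of all genes moved by -0.17 in siYAP1+TAZ against siControl, with 2837 genes higher and 7146 lower instead of 4245 and 4687, and in Ad-TEADi against Ad-GFP 3034 were higher and 4719 lower instead of 4339 and 3415. The members' counts under that scaling were 22 higher and 9 lower with siYAP1+TAZ, and 19 higher and 9 lower with Ad-TEADi.

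**Figure D1:**
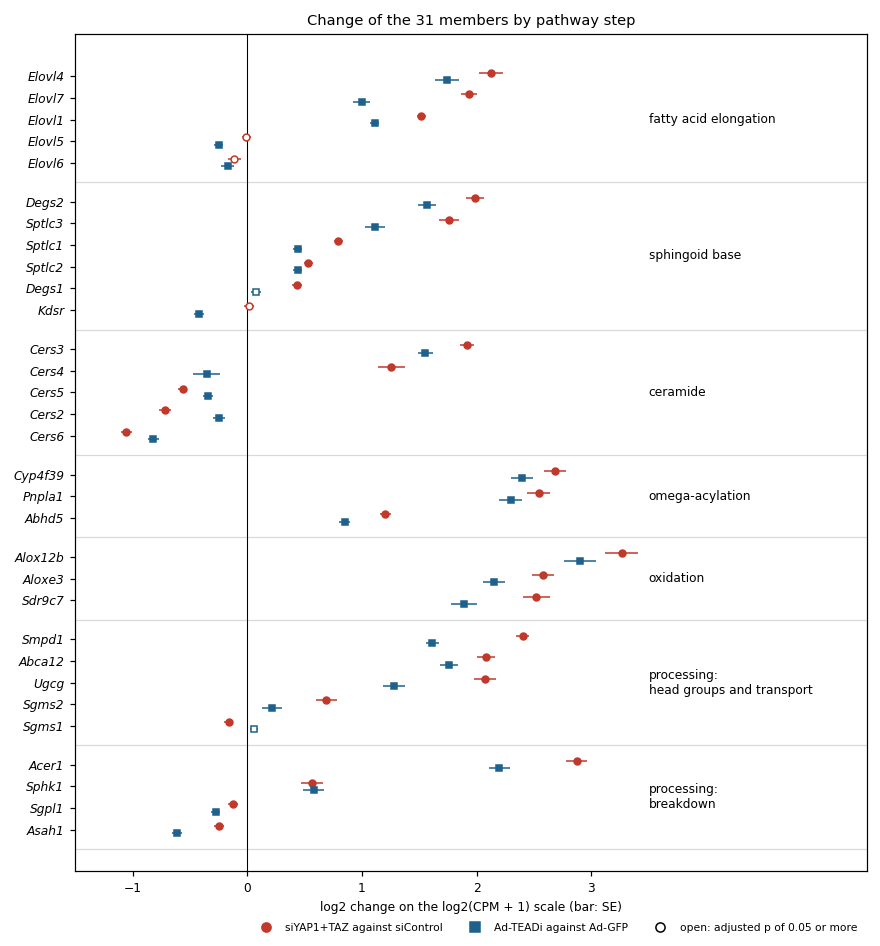
Log2 change of each of the 31 members, grouped by pathway step, in siYAP1+TAZ against siControl and in Ad-TEADi against Ad-GFP, with SE bars on the log2(CPM + 1) scale. All 3 omega-acylation and all 3 oxidation genes lie right of 0 in both comparisons, while the ceramide synthase genes lie on both sides.

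The elongases add carbon pairs to fatty acids, each with its own range of chain lengths. Of the 5 measured, Elovl1, Elovl4 and Elovl7 rose in both comparisons, as did 20.7% of all genes tested. Elovl5 and Elovl6 fell with Ad-TEADi and were not called with siYAP1+TAZ. Elovl4 (chromosome 9, 83778692 to 83806277 on mm10), which makes the ultra-long chains of acylceramide, had 769, 790.4 and 778 CPM in the siYAP1+TAZ libraries A, B and C, against 173, 165 and 197 CPM in siControl. With the virus it had 402, 376 and 414 CPM in Ad-TEADi and 114, 95.1 and 153 CPM in Ad-GFP. In both comparisons every treated library stood above every control library, at log2 changes of 2.13 (SE 0.105) and 1.74 (SE 0.105).

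Elovl1 (chromosome 4, 118428093 to 118432953), the elongase of saturated very long chains, stood at 337, 357 and 343 CPM in siYAP1+TAZ, against 121, 118 and 122 CPM in siControl. Its values were 210.2, 197 and 196 CPM in Ad-TEADi and 95.5, 89.5 and 92.9 CPM in Ad-GFP, and again the groups did not overlap. The log2 changes were 1.52 (SE 0.0396) with siYAP1+TAZ and 1.11 (SE 0.0396) with Ad-TEADi. For Elovl7 (chromosome 13, 108214404 to 108285683), another elongase of long-chain fatty acids, siYAP1+TAZ libraries held 213, 226 and 213 CPM and siControl libraries 55.4, 56.0 and 56.8 CPM. Ad-TEADi libraries held 87.8, 85.3 and 90.6 CPM and Ad-GFP libraries 42.3, 37.8 and 51.7 CPM. Elovl7 was higher in all treated libraries, but its log2 change was 1.94 (SE 0.0709) with siYAP1+TAZ and 0.996 (SE 0.0709) with Ad-TEADi. Across these 3 rises limma (Benjamini-Hochberg) gave adjusted p from 8.54e-17 to 4.79e-13 for siYAP1+TAZ and adjusted p from 9.11e-15 to 2.73e-10 for Ad-TEADi.

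Elovl5, which elongates polyunsaturated chains, ranged over 39.9 to 41.4 CPM in siYAP1+TAZ and 40.3 to 41.7 CPM in siControl, which overlapped, and over 48.7 to 49.1 CPM in Ad-TEADi and 56.9 to 60.5 CPM in Ad-GFP, which did not. It fell by 0.25 on the log2 scale with Ad-TEADi (SE 0.0416; limma, Benjamini-Hochberg, adjusted p = 3.61e-05). With siYAP1+TAZ Elovl5 was called as a fall when columns were rescaled to equal totals (log2 change -0.20, limma, adjusted p = 2.1e-04). It was also called with quantile normalization (log2 change -0.093, limma, adjusted p = 0.0463). Elovl6, which elongates saturated chains made by fatty acid synthase, fell by 0.17 with Ad-TEADi (SE 0.0561; limma, Benjamini-Hochberg, adjusted p = 0.0127). Without library A of Ad-TEADi the adjusted p for Elovl6 was 0.101, and without library C of Ad-GFP it was 0.0554 (limma). With siYAP1+TAZ its log2 change was -0.11 (limma, adjusted p = 0.0816), which passed when columns were rescaled to equal totals (log2 change -0.30, limma, adjusted p = 1.1e-04).

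The sphingoid base is built by serine palmitoyltransferase, whose subunits Sptlc1, Sptlc2 and Sptlc3 condense serine with a fatty acid. It is then reduced by Kdsr and, once part of a ceramide, desaturated by Degs1 or hydroxylated by Degs2. Of these 6 genes 5 rose with siYAP1+TAZ (32.7% of all genes tested), and with Ad-TEADi 4 rose (33.5%) and Kdsr fell (26.3%). Sptlc3 (chromosome 2, 139493913 to 139637674), whose subunit widens the range of base lengths, had 42.1, 47.1 and 42.9 CPM in siYAP1+TAZ, against 11.2, 12.3 and 13.4 CPM in siControl. It had 15.3, 13.6 and 15.4 CPM in Ad-TEADi and 6.07, 5.49 and 7.40 CPM in Ad-GFP. Every treated library was above every control library, and the log2 changes were 1.76 (SE 0.0865) and 1.11 (SE 0.0865). Degs2 (chromosome 12, 108678711 to 108702315), which makes the phytoceramides of skin, stood at 47.8, 49.0 and 46.2 CPM in siYAP1+TAZ and 11.9, 11.3 and 10.6 CPM in siControl. In the virus experiment its values were 20.6, 17.8 and 19.6 CPM in Ad-TEADi and 6.04, 5.00 and 6.58 CPM in Ad-GFP. The groups did not overlap, and the log2 changes were 1.99 (SE 0.0784) with siYAP1+TAZ and 1.57 (SE 0.0784) with Ad-TEADi.

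The more widely expressed genes of the same step moved less. Sptlc1, the subunit shared by all forms of the enzyme, rose by 0.80 with siYAP1+TAZ and 0.44 with Ad-TEADi on the log2 scale. Sptlc2, the alternative catalytic subunit, rose by 0.53 with siYAP1+TAZ and 0.44 with Ad-TEADi. Degs1, the main ceramide desaturase, had 369 to 402 CPM in siYAP1+TAZ and 279 to 286 CPM in siControl, and rose by 0.44. Its values were 308 to 329.9 CPM in Ad-TEADi and 288 to 316 CPM in Ad-GFP, which overlapped (limma, Benjamini-Hochberg, adjusted p = 0.132, and 0.0433 without library B of Ad-GFP). The reductase gene Kdsr had 40.6 to 41.9 CPM in Ad-TEADi and 54.4 to 57.3 CPM in Ad-GFP, a fall by 0.42 on the log2 scale (SE 0.0458; limma, adjusted p = 1.48e-07). With siYAP1+TAZ its log2 change was 0.01, and with columns rescaled to equal totals it was -0.17. The 5 rises with siYAP1+TAZ had adjusted p from 1.69e-14 to 2.41e-08, and the 4 with Ad-TEADi adjusted p from 1.33e-12 to 8.11e-09 (limma, Benjamini-Hochberg).

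The ceramide synthases differ in the fatty acid they accept, and their genes moved in opposite directions. Cers3 (chromosome 7, 66743504 to 66823691), the synthase for ultra-long chains and so for acylceramide, had 425, 459.6 and 435 CPM in siYAP1+TAZ, against 117, 109 and 122 CPM in siControl. It had 224, 208 and 227 CPM in Ad-TEADi and 73.8, 66.3 and 83.1 CPM in Ad-GFP. The groups stood clear of each other in both experiments, with log2 changes of 1.91 (SE 0.0625) and 1.55 (SE 0.0625) (limma, Benjamini-Hochberg, adjusted p = 1.2e-15 with siYAP1+TAZ and 4.91e-14 with Ad-TEADi).

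Cers6 (chromosome 2, 68861441 to 69114282), which prefers shorter chains such as palmitate, moved the other way. Its values were 27.7, 28.5 and 29.3 CPM in siYAP1+TAZ and 58.6, 64.0 and 58.4 CPM in siControl, and 35.9, 36.9 and 38.8 CPM in Ad-TEADi and 64.5, 68.1 and 66.6 CPM in Ad-GFP. Every treated library was below every control library. Cers6 fell by 1.06 on the log2 scale with siYAP1+TAZ (SE 0.0478) and by 0.82 with Ad-TEADi (SE 0.0478), at adjusted p = 1.38e-13 and 1.41e-11 (limma, Benjamini-Hochberg). Cers2, the synthase for very long chains, fell by 0.72 with siYAP1+TAZ and by 0.25 with Ad-TEADi. Cers5, which like Cers6 favours palmitate, fell by 0.56 with siYAP1+TAZ and by 0.34 with Ad-TEADi. Over these 3 genes the adjusted p ran from 1.38e-13 to 4.72e-10 with siYAP1+TAZ and from 1.41e-11 to 0.000593 with Ad-TEADi (limma, Benjamini-Hochberg).

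Cers4 (chromosome 8, 4493026 to 4531680), a synthase known in mouse skin for its role in the hair follicle and sebaceous gland, was the 1 member called in opposite directions. Of all genes tested 7.6% were. It stood at 5.42, 5.77 and 4.52 CPM in siYAP1+TAZ, against 1.72, 1.77 and 1.34 CPM in siControl, and at 1.63, 0.983 and 1.017 CPM in Ad-TEADi, against 1.87, 1.74 and 1.79 CPM in Ad-GFP. The siYAP1+TAZ libraries were all above siControl, and the Ad-TEADi libraries all below Ad-GFP, library A narrowly. The log2 change was 1.25 (SE 0.118) with siYAP1+TAZ and -0.35 (SE 0.118) with Ad-TEADi, and the difference of 1.61 (SE 0.167) passed (limma, Benjamini-Hochberg, adjusted p = 2.41e-07). The fall with Ad-TEADi had adjusted p = 0.0149 in limma, and 0.0745 without its library B or 0.0646 without its library C, while the difference passed in every alternative tried. In 3 of the 4 groups Cers4 lay close to the 1 CPM of the filter.

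**Figure D2:**
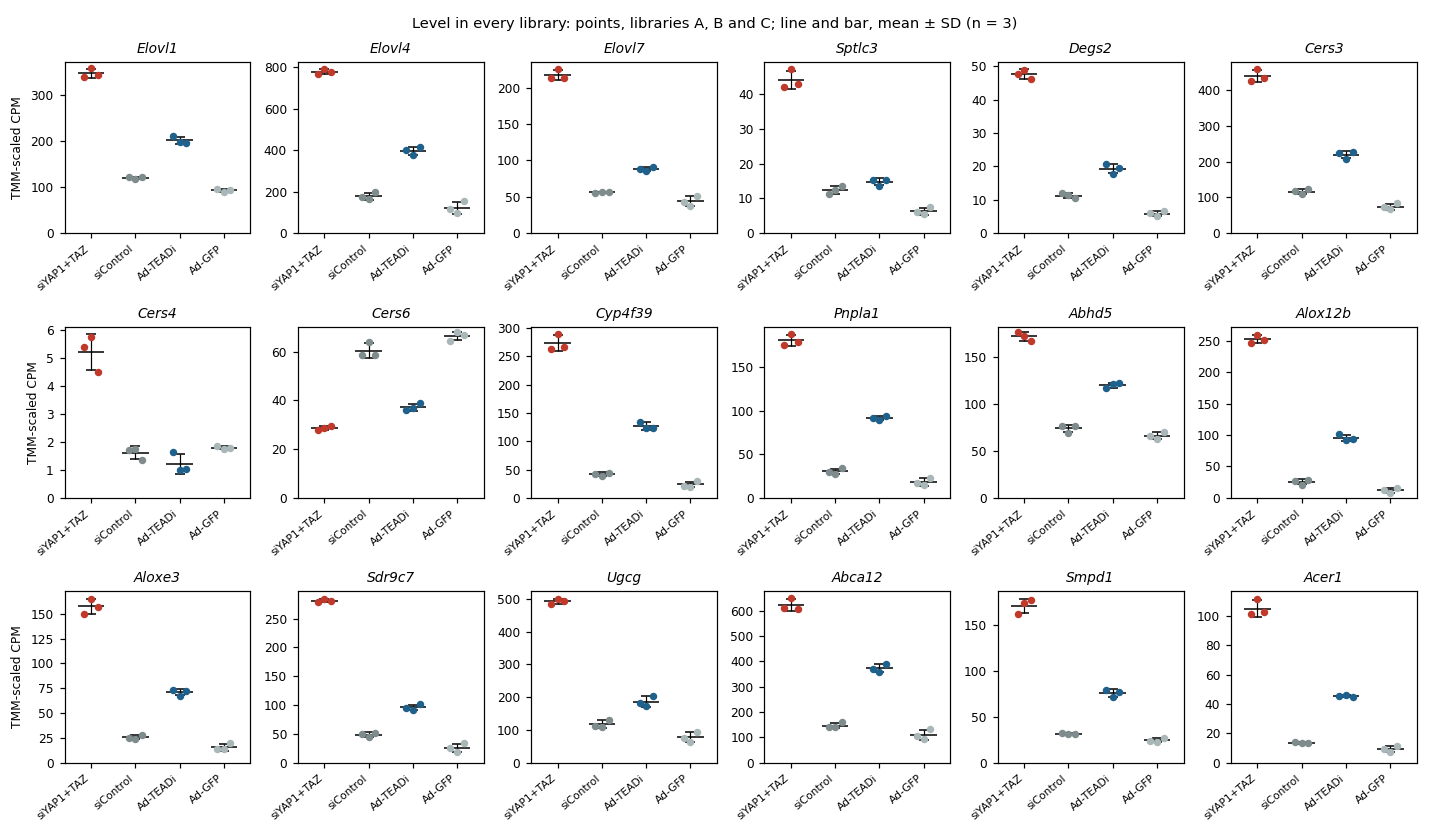
Levels (CPM, linear axis from 0) in each of the 12 libraries of the members whose values are given in full, 1 panel per gene, with the groups along the horizontal axis a point per library, and a line and bar for the mean ± SD. Cers6 sits lower in both treated groups, Cers4 is higher in siYAP1+TAZ and lower in Ad-TEADi than its control, and the others sit higher in both treated groups.

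All 3 genes of omega-hydroxylation and acylation rose in both comparisons, against 20.7% of all genes tested. Cyp4f39 (chromosome 17, 32452723 to 32493320), the mouse counterpart of the human omega-hydroxylase CYP4F22, had 262, 289 and 267 CPM in siYAP1+TAZ, against 42.4, 37.9 and 44.7 CPM in siControl. Its values in the virus experiment were 134, 123 and 123 CPM in Ad-TEADi and 21.5, 19.9 and 29.5 CPM in Ad-GFP. Its groups did not overlap, and its log2 changes were 2.68 (SE 0.0939) and 2.39 (SE 0.0939). Pnpla1 (chromosome 17, 28858411 to 28890309), the transacylase that puts linoleate on the omega-hydroxyceramide, had 175, 187 and 179 CPM in siYAP1+TAZ, against 30.0, 27.1 and 33.7 CPM in siControl. It had 91.0, 89.7 and 93.7 CPM in Ad-TEADi and 17.3, 14.4 and 22.8 CPM in Ad-GFP. Again no treated library reached down to a control library, with log2 changes of 2.54 (SE 0.102) and 2.29 (SE 0.102).

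Abhd5 (chromosome 9, 122351608 to 122381524), a cofactor of Pnpla1 that is also known from triglyceride breakdown, moved less. It had 177, 173 and 168 CPM in siYAP1+TAZ, against 76.9, 69.8 and 76.3 CPM in siControl, and 117, 121 and 122 CPM in Ad-TEADi, against 65.8, 63.0 and 70.4 CPM in Ad-GFP. Both pairs of groups were separate, and the log2 changes were 1.20 (SE 0.0465) and 0.85 (SE 0.0465). For the 3 genes limma (Benjamini-Hochberg) gave adjusted p from 3.05e-15 to 2.22e-14 with siYAP1+TAZ and adjusted p from 3.51e-14 to 5.42e-12 with Ad-TEADi.

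All 3 oxidation genes rose in both comparisons, against 20.7% of all genes tested. Alox12b (chromosome 11, 69156989 to 69169792), the 12R-lipoxygenase that oxidises the linoleate of acylceramide, had 247, 259.9 and 252 CPM in siYAP1+TAZ, against 27.0, 21.2 and 28.8 CPM in siControl. In Ad-TEADi it had 102, 91.8 and 93.0 CPM, against 12.7, 8.22 and 16.01 CPM in Ad-GFP. The groups did not overlap, although library B of Ad-GFP lay well below the other two. Its log2 changes of 3.26 (SE 0.14) and 2.90 (SE 0.14) were the largest rises of any member. Aloxe3 (chromosome 11, 69125896 to 69149115), which acts next and turns the hydroperoxide into an epoxy alcohol, lies beside Alox12b with 7873 bases between them. It had 150.3, 165 and 157 CPM in siYAP1+TAZ and 25.1, 24.1 and 27.6 CPM in siControl. With the virus its values were 73.2, 67.3 and 71.8 CPM in Ad-TEADi and 13.5, 13.2 and 19.4 CPM in Ad-GFP, and its log2 changes were 2.58 (SE 0.0942) and 2.15 (SE 0.0942). All treated libraries stood above their controls.

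Sdr9c7 (chromosome 10, 127898518 to 127911761), the dehydrogenase that converts the epoxy alcohol to the ketone, had 278, 284 and 280.3 CPM in siYAP1+TAZ, against 49.5, 43.7 and 51.5 CPM in siControl. It had 94.2, 91.8 and 101 CPM in Ad-TEADi, against 25.3, 18.7 and 33.2 CPM in Ad-GFP. The groups were again apart, with log2 changes of 2.52 (SE 0.117) and 1.89 (SE 0.117). The 3 oxidation genes had adjusted p from 5.58e-15 to 2.05e-13 with siYAP1+TAZ and adjusted p from 1.79e-13 to 3.44e-11 with Ad-TEADi (limma, Benjamini-Hochberg).

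Processing covers the head groups put on ceramide, its transport and its breakdown. Of these 9 genes 6 rose (32.7% of all genes tested) and 3 fell (36.1%) with siYAP1+TAZ. With Ad-TEADi 6 rose (33.5% of all genes) and 2 fell (26.3%). Ugcg (chromosome 4, 59189257 to 59222833), which glucosylates ceramide for storage in lamellar bodies, had 486, 501 and 493 CPM in siYAP1+TAZ, against 113, 108 and 131 CPM in siControl. It had 182, 173 and 204 CPM in Ad-TEADi, against 75.7, 62.6 and 93.3 CPM in Ad-GFP. Its groups did not overlap, and the log2 changes were 2.07 (SE 0.0965) and 1.28 (SE 0.0965). Abca12 (chromosome 1, 71242276 to 71414910), the transporter that loads these lipids into lamellar bodies and is mutated in harlequin ichthyosis, had 609, 648 and 607 CPM in siYAP1+TAZ and 139, 141 and 159 CPM in siControl. It had 369, 358 and 389 CPM in Ad-TEADi and 104, 94.7 and 132 CPM in Ad-GFP. Again the treated libraries were all higher, with log2 changes of 2.08 (SE 0.0803) and 1.76 (SE 0.0803).

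Smpd1 (chromosome 7, 105554360 to 105558389), the acid sphingomyelinase that releases ceramide from sphingomyelin, stood at 161, 173 and 176 CPM in siYAP1+TAZ, against 32.4, 31.2 and 30.7 CPM in siControl. Its values were 79.3, 71.1 and 77.0 CPM in Ad-TEADi and 23.6, 22.3 and 26.5 CPM in Ad-GFP. The groups were apart, with log2 changes of 2.40 (SE 0.0573) and 1.61 (SE 0.0573). The products of the sphingomyelin synthase genes Sgms1 and Sgms2 use ceramide in the opposite direction. Sgms1 had 90.1 to 92.4 CPM in siYAP1+TAZ and 99.7 to 104 CPM in siControl, and fell by 0.16 on the log2 scale (limma, Benjamini-Hochberg, adjusted p = 0.000642). With Ad-TEADi its log2 change was 0.06 (limma, adjusted p = 0.19). Sgms2 rose by 0.69 with siYAP1+TAZ, to 6.49 to 7.16 CPM against 3.44 to 4.46 CPM in siControl. Its rise by 0.22 with Ad-TEADi was at the threshold (limma, adjusted p = 0.0479), and the adjusted p lay between 0.0118 and 0.201 over the alternatives. It passed in 7 of these 19 alternatives.

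Acer1 (chromosome 17, 56953490 to 56982126), the alkaline ceramidase of the upper epidermis, rose most of the breakdown genes. It had 101, 111 and 102 CPM in siYAP1+TAZ, against 14.0, 13.2 and 13.1 CPM in siControl. Its values were 45.1, 46.0 and 44.6 CPM in Ad-TEADi and 9.06, 7.27 and 11.3 CPM in Ad-GFP. No library of a treated group fell within its control's range, and the log2 changes were 2.87 (SE 0.0917) and 2.20 (SE 0.0917). Asah1, the lysosomal acid ceramidase, moved the other way: it had 69.7 to 71.2 CPM in siYAP1+TAZ and 79.0 to 88.8 CPM in siControl, and 65.9 to 68.2 CPM in Ad-TEADi and 101 to 105 CPM in Ad-GFP. It fell by 0.25 on the log2 scale with siYAP1+TAZ and by 0.61 with Ad-TEADi.

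Sphk1, which phosphorylates the released base, rose by 0.57 with siYAP1+TAZ and 0.58 with Ad-TEADi. Sgpl1, the lyase that degrades the phosphorylated base, fell by 0.12 with siYAP1+TAZ and by 0.28 with Ad-TEADi. The smaller of these falls had adjusted p = 0.0132 in limma, and 0.0571, 0.0563 and 0.0648 without library A or C of siYAP1+TAZ or library B of siControl. Over the breakdown genes that rose, limma (Benjamini-Hochberg) gave adjusted p from 8.67e-16 to 2.21e-05 with siYAP1+TAZ and adjusted p from 8.58e-14 to 2.24e-05 with Ad-TEADi.

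Within families whose members share a reaction, levels were compared per kb of exon to allow for gene length. The exon length was the union of all annotated exons, whichever transcripts the cells made, so the annotation still enters these shares and ranks. Cers3 made up 88.8% ± 0.467 of the summed ceramide synthase level (CPM per kb) in siYAP1+TAZ and 56.2% ± 1.83 in siControl, and 77.0% ± 0.788 in Ad-TEADi and 45.5% ± 3.11 in Ad-GFP (SD, n = 3 each). Elovl4 made up 56.6% ± 0.388 of the summed level of the 5 elongases in siYAP1+TAZ and 43.9% ± 2.07 in siControl, and 53.2% ± 1.16 in Ad-TEADi and 36.6% ± 4.56 in Ad-GFP. For Degs2, the share of the Degs1 and Degs2 sum was 11.1% ± 0.232 in siYAP1+TAZ and 3.86% ± 0.255 in siControl, and 5.74% ± 0.329 in Ad-TEADi and 1.92% ± 0.314 in Ad-GFP. In each of these families the epidermal form took a larger share in every treated library than in any control library of its experiment.

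The share of Sptlc3 in the sum of the catalytic subunit genes Sptlc2 and Sptlc3 was 47.4% ± 0.759 in siYAP1+TAZ and 26.8% ± 1.65 in siControl. It was 27.2% ± 0.922 in Ad-TEADi and 17.8% ± 2.09 in Ad-GFP. Acer1 reached 67.5% ± 1.37 of the Asah1 and Acer1 sum in siYAP1+TAZ, against 18.3% ± 1.020 in siControl, and 48.5% ± 0.815 in Ad-TEADi, against 11.1% ± 2.01 in Ad-GFP. Acer1 thus passed Asah1 per kb in siYAP1+TAZ cells. That sum leaves out the ceramidase genes Acer2, Acer3 and Asah2, so it gives no share of all ceramidase genes. Acer3 averaged 42.4 CPM in siYAP1+TAZ and 62.7 CPM in siControl, and 59.5 CPM in Ad-TEADi and 69.4 CPM in Ad-GFP. By level per kb Elovl4 ranked first of all 31 members in siYAP1+TAZ (257 ± 3.52 CPM per kb) and Ad-TEADi (131 ± 6.45 CPM per kb). Degs1 ranked first in siControl (109 ± 1.33 CPM per kb) and Ad-GFP (117 ± 5.45 CPM per kb), and Cers4 was last in all 4 groups.

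**Figure D3:**
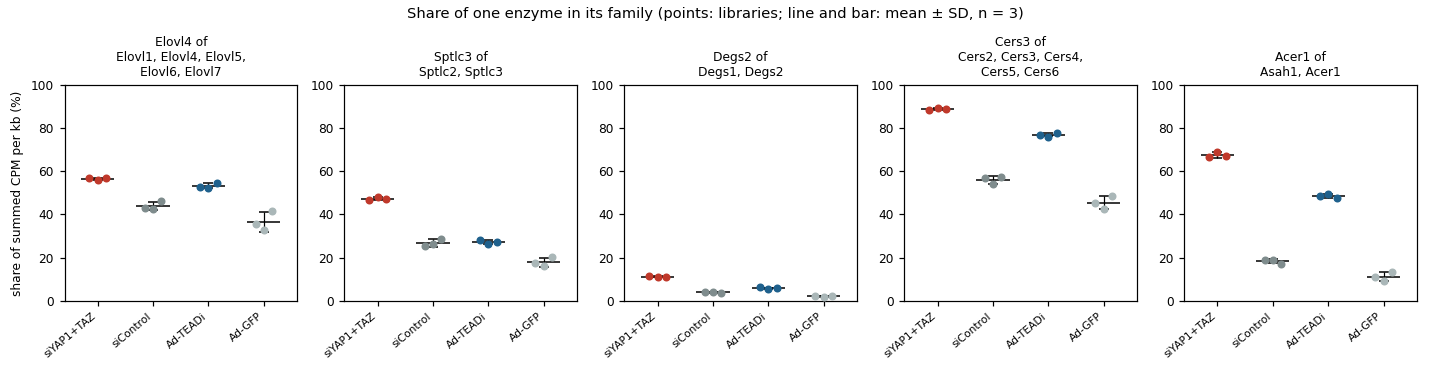
Share (%) of 1 epidermal gene in the summed level, in CPM per kb of exon, of the genes named above its panel, for Elovl4, Sptlc3, Degs2, Cers3 and Acer1. The Acer1 panel sums Asah1 and Acer1 only. Each panel has a point per library and a line and bar for the mean ± SD in each group. Every treated library lies above the control libraries of its experiment in each panel, with Cers3 at 88.8% in siYAP1+TAZ and 56.2% in siControl on average.

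The comparison of both treatments asked whether blocking the coactivators and blocking TEAD gave like changes. The experiments have separate controls. Of the 31 members 20 rose in both (20.7% of all genes tested), among them 14 that rose by at least 2-fold in both (3.05% of all genes), and 5 fell in both (17.6%): Asah1, Cers2, Cers5, Cers6 and Sgpl1. The size of the change was then tested as the siYAP1+TAZ effect minus the Ad-TEADi effect. That difference was positive for 21 members (25.1% of all genes), negative for 4 (26.4%) and not called for 6, with a median of 0.36 over the members and -0.02 over all genes. Of the 20 members that rose in both, 15 rose further with siYAP1+TAZ (9.55% of all genes), none further with Ad-TEADi (2.14%), and in 5 the difference was not called (9.06%). With columns rescaled to equal totals the difference was positive for 2518 and negative for 4657 of all genes instead of 3249 and 3424, and positive for 18 and negative for 4 of the members.

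Elovl7 had the largest such difference among members that rose in both, 0.94 (SE 0.1), followed by Ugcg with 0.80 (SE 0.136) and Smpd1 with 0.79 (SE 0.081) (limma, Benjamini-Hochberg, adjusted p = 3.32e-07, 8.03e-05 and 1.99e-07). The differences of Acer1, 0.68, and Sptlc3, 0.65, also passed. The 5 genes without a called difference were Alox12b, Cyp4f39, Pnpla1, Sphk1 and Sptlc2. For Alox12b the difference was 0.36 (SE 0.198) with adjusted p = 0.134 in limma, and 0.61 with adjusted p = 4.50e-04 without library B of Ad-GFP. Without that library those of Cyp4f39 (0.40, limma, adjusted p = 0.00885, against 0.0764 with it) and Pnpla1 (0.39, limma, adjusted p = 0.00694, against 0.166 with it) also passed. The difference of Cyp4f39 passed as well without library C of siControl (0.34, limma, adjusted p = 0.04896) or library A of Ad-GFP (0.35, limma, adjusted p = 0.0492). The differences of Elovl4 (0.39, limma, adjusted p = 0.0352) and Abca12 (0.32, limma, adjusted p = 0.0242) passed but were lost in 11 and 8 of the 18 alternatives, among them without library C of Ad-GFP.

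**Figure D4:**
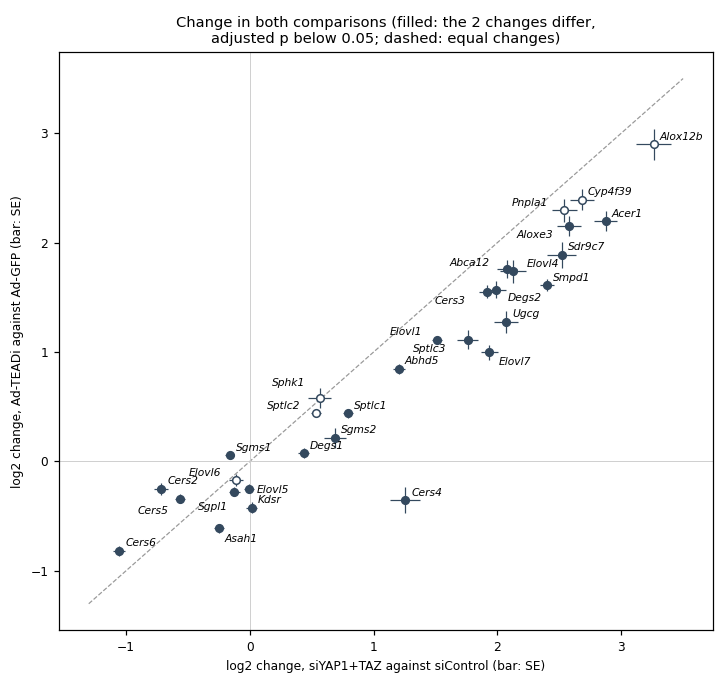
Log2 change with siYAP1+TAZ (horizontal) against log2 change with Ad-TEADi (vertical) for the 31 members, with SE bars. Filled points mark a called difference between the changes and the dashed line marks equal changes. Most members that rose lie below the line, and Cers4 stands alone at 1.25 and -0.35.

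The control groups were themselves not alike. In Ad-GFP cells 21 members were lower than in siControl and 5 were higher, while over all genes tested 21.8% were lower and 18.7% higher. The median log2 difference was -0.36 over the members and -0.01 over all genes. Alox12b was lowest relative to siControl, at -1.03 (SE 0.14), followed by Sdr9c7 at -0.91 (SE 0.117) and Sptlc3 at -0.87 (SE 0.0865). Elovl5 was highest, at 0.50 (SE 0.0416) (limma, Benjamini-Hochberg, adjusted p = 8.35e-06 for Alox12b and 1.63e-08 for Elovl5). This comparison shares its libraries with both main comparisons, and the experiments differ in how the cells were treated.

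Replicates of the control groups were less even for these genes than those of the treated groups. For the 18 members given in full, the median SD of log2(CPM + 1) over the 3 libraries was 0.0493 in siYAP1+TAZ and 0.102 in siControl, and 0.0700 in Ad-TEADi and 0.234 in Ad-GFP. Over all genes tested it was 0.0594 in siYAP1+TAZ and 0.0705 in siControl, and 0.0725 in Ad-TEADi and 0.0658 in Ad-GFP. The fit used a single spread per gene over all groups, so a gene had the same SE in both main comparisons. For members that spread most in Ad-GFP, the SE and adjusted p of comparisons with Ad-GFP may therefore be too small. Of the 17 members that rose by at least 2-fold, library B of Ad-GFP was the lowest of its group for 17 (43.1% of all genes tested) and library C the highest for 15 (39.0% of all genes). In siYAP1+TAZ library B was the highest for 15 (33.3% of all genes). The spinous and granular marker sum varied over 622 to 794 CPM among the Ad-GFP libraries, and its part in this spread was not tested.

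Further genes of fatty acid and sphingolipid metabolism were looked up for comparison: 49 of 56 were listed and 47 passed the filter. With siYAP1+TAZ 24 of the 47 were higher (32.7% of all genes tested) and 10 lower (36.1%), with a median log2 change of 0.12. With Ad-TEADi 21 were higher (33.5% of all genes) and 12 lower (26.3%), with a median of 0.08. Among the 10 listed in addition as barrier lipid genes, 8 rose with siYAP1+TAZ and 5 with Ad-TEADi, and none fell, beside these same shares of all genes. Lipn, an epidermal lipase mutated in ichthyosis, had 94.1 ± 5.30 CPM in siYAP1+TAZ and 13.4 ± 0.639 CPM in siControl, and 52.6 ± 0.703 CPM in Ad-TEADi and 10.7 ± 1.45 CPM in Ad-GFP (SD, n = 3 each). Ephx3, an epoxide hydrolase that acts after the lipoxygenases, rose by 2.65 with siYAP1+TAZ and 1.66 with Ad-TEADi. Acsl1, which activates long-chain fatty acids, rose by 2.56 with siYAP1+TAZ and 1.13 with Ad-TEADi, and Gltp, a glycolipid transfer protein, by 1.83 and 1.36 in the same order.

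The largest falls were those of St3gal5 and the desaturase genes. St3gal5, which makes the ganglioside GM3 from lactosylceramide, had 2.57 ± 0.125 CPM in siYAP1+TAZ and 18.9 ± 0.544 CPM in siControl, and 4.01 ± 0.203 CPM in Ad-TEADi and 21.8 ± 1.68 CPM in Ad-GFP. Its libraries did not overlap, and it fell by 2.48 and 2.19 on the log2 scale (limma, Benjamini-Hochberg, adjusted p = 3.22e-16 with siYAP1+TAZ and 3.4e-15 with Ad-TEADi). Fads1 and Fads2, which desaturate polyunsaturated fatty acids, fell by 1.12 and 1.21 with siYAP1+TAZ and by 1.08 and 0.91 with Ad-TEADi.

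In the authors' deposited table of the same comparisons, 22 members were higher and 6 lower with siYAP1+TAZ, and 19 were higher and 9 lower with Ad-TEADi. The share of all genes called by the authors was not computed. For each comparison 28 members were called in the same direction in that authors' table and here. The exception was Sgms2 with Ad-TEADi, at a step-up adjusted p of 0.0649 in the authors' deposited table.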

How the data were processed

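Poly(A) RNA was sequenced from 12 libraries in 4 groups of 3. The authors deposited CPM values with TMM scaling (trimmed mean of M-values), and, in a second deposited table, the p-values (step-up adjusted) and linear ratios of their own comparisons. The submitters' processing notes name the build mm10 and the tools Partek 8.0.19.0819, STAR 2.7.0f and cutadapt 1.18. The counting of reads and its use of strand were not given in the sources used here. Gene ends were reduced by 1 base, after which 17073 of 17090 genes (99.9%) had their GENCODE vM21 position.

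Low values lay on steps of 1 read per library, which gave the depth. Only 82.5% to 84.4% of them lay within 0.1 read of a whole multiple, below the 95% minimum for turning values back into reads, so no count model was run. Tests were run on log2(CPM + 1) in limma 3.58.1 (R 4.3.3). A filter of 1 CPM in at least 3 of 12 libraries kept 12966 genes and dropped 4124. The 12 libraries shared 1 fit (eBayes with trend), with a single spread per gene over all groups. Tests were two-sided, Benjamini-Hochberg adjusted over all genes tested, with a threshold of 0.05. The procedure was tested on simulated data whose spread was equal in all groups and independent between genes. The members' spread was not equal between groups, so the simulation cannot show how the tests behave for them.

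Exon lengths are unions of annotated exons. Values in every library are given for members that were called with a change of 2-fold or more in either main comparison, were called in opposite directions, or had a called difference between the effects of at least 1 (log2). Of the other pathway genes, the 3 largest called rises and falls in each comparison with a mean of at least 5 CPM were named. The members, lists and rules were chosen with earlier results of these data known. Alternatives were another pseudocount, no filter, other scalings, only the comparison's 6 libraries, a replicate block, no trend, and leaving out each library.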

Additional observations from a re-analysis of the deposited data

Results flagged for a closer look

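Cers4 was set apart because its response to the treatments differed by the test of the difference itself. The siYAP1+TAZ effect minus the Ad-TEADi effect was 1.61 on the log2 scale (SE 0.167; limma, Benjamini-Hochberg, adjusted p = 2.41e-07). Over the alternatives that difference lay between 1.52 and 2.08 and passed in each. All 3 siYAP1+TAZ libraries were above siControl, and all 3 Ad-TEADi libraries were below Ad-GFP, library A narrowly. Mean levels were 1.21 CPM in Ad-TEADi and 1.80 CPM in Ad-GFP, close to the 1 CPM of the filter. The fall with Ad-TEADi was not called without its library B (limma, adjusted p = 0.0745) or its library C (limma, adjusted p = 0.0646).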

How the results depend on the processing

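Under every alternative tried, call and direction were kept by 27 of the 28 members called in siYAP1+TAZ against siControl, 26 of 29 in Ad-TEADi against Ad-GFP, 21 of 25 for the difference between the effects and 24 of 26 in Ad-GFP against siControl. Of the members not called, Sgms1 (Ad-TEADi against Ad-GFP), Elovl6, Sptlc2 and Sphk1 (the difference) and Sgms2 (Ad-GFP against siControl) changed sign under some alternatives without a call. With columns rescaled to equal totals 7146 of all genes were lower in siYAP1+TAZ instead of 4687, and Kdsr changed sign there to -0.17 on the log2 scale (limma, adjusted p = 0.00223). The cause was not tested. Leaving out each library in turn gave 22 members higher and 5 to 7 lower with siYAP1+TAZ (all genes 4001 to 4273 higher and 4317 to 4728 lower), and 19 to 20 higher and 8 to 9 lower with Ad-TEADi (all genes 3986 to 4380 and 3160 to 3439). The difference was then positive for 18 to 24 members and negative for 4 (all genes 3018 to 3227 and 3063 to 3391). In Ad-GFP against siControl 4 to 6 members were higher and 20 to 21 lower (all genes 2014 to 2464 and 2300 to 2861). The main fit treated the libraries as unpaired, and a correlation of 0.1 was set as the minimum for pairing by letter. Between siYAP1+TAZ and siControl the correlation of same-letter deviations ran from -0.0136 to 0.0874, below that minimum. Between Ad-TEADi and Ad-GFP it was -0.00355 for A, 0.147 for B and 0.161 for C, so letters B and C passed it and A did not. Different-letter correlations between Ad-TEADi and Ad-GFP ran from -0.166 to 0.0282. Whether the letters pair the virus libraries is therefore not settled. With the letter as a replicate block the members' counts were 22 higher and 6 lower with siYAP1+TAZ, 20 and 9 with Ad-TEADi, 21 and 4 for the difference, and 5 and 21 in Ad-GFP against siControl. Under that block 4296 and 4765 of all genes were higher and lower with siYAP1+TAZ, and 4436 and 3481 with Ad-TEADi. The calls with Ad-TEADi of Cers4 and Sgms2, the members with the lowest levels, and of Elovl6 were each lost under some alternatives, and the part of depth in this was not tested.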

Other observations

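Lipid genes outside the ceramide pathway, taken from the sebaceous marker list, gave the following values. Dgat2, which completes triglyceride synthesis, averaged 174 CPM in siYAP1+TAZ and 40.1 CPM in siControl, and 76.9 CPM in Ad-TEADi and 22.5 CPM in Ad-GFP. Its log2 changes were 2.09 and 1.73 (limma, Benjamini-Hochberg, adjusted p = 3.94e-15 with siYAP1+TAZ and 1.33e-13 with Ad-TEADi). Cidea, a lipid droplet gene, averaged 17.04 CPM in siYAP1+TAZ and 4.54 CPM in siControl, and 17.6 CPM in Ad-TEADi and 3.10 CPM in Ad-GFP. It rose by 1.72 on the log2 scale with siYAP1+TAZ and by 2.21 with Ad-TEADi. Soat1, which esterifies cholesterol, fell by 0.23 with siYAP1+TAZ and rose by 0.50 with Ad-TEADi.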
